A study of Mus musculus with 3 samples.

Results

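The oxidative phosphorylation gene set was followed through 3 single-cell libraries of mouse lung, one each from a PD00, a Model and a Control sample. Its members were the genes whose symbol begins with Ndufa, Ndufb, Ndufc, Ndufs or Ndufv and a digit, with Uqcr, Cyc1, Cox4i, Cox5, Cox6, Cox7, Cox8 or Atp5, or with mt-Nd, mt-Co, mt-Cytb or mt-Atp. This rule found 95 of the 32285 genes listed, of which 82 are nuclear-encoded and 13 are encoded by the mitochondrial genome. Complexes were assigned by symbol, with Ndufa4 and Ndufa4l2 counted in complex I. Complex I had 38 nuclear and 7 mitochondrially encoded members, complex III 9 and 1, complex IV 18 and 3, and complex V, the ATP synthase, 17 and 2.

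The series title names ovalbumin (OVA), an allergen used to provoke asthma-like airway inflammation in mice, and PD00, a peptidomimetic. The 3 samples carry the treatment labels PD00, Model and Control, all are from mice aged 3 months, and the tissue label reads healthy lung for every one of them. The labels used here say neither how many animals went into a library nor whether the PD00 animals also received OVA. With 1 library per group, library and treatment cannot be told apart, no difference below has a replicate check, and no test was made; every interval is an exact 95% interval that covers counting error only, since cells of a library are not replicates.

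The respiratory chain passes electrons from NADH through complexes I, III and IV to oxygen and pumps protons that drive ATP synthase. Complexes I, III, IV and V are built from subunits of both genomes, so that nuclear and mitochondrial transcripts are made by separate polymerases, while complex II is wholly nuclear-encoded. In the lung, alveolar macrophages are known for oxidative metabolism that runs on lipids, whereas mature neutrophils hold few mitochondria and live largely by glycolysis.

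The files held 9851 PD00, 11772 Model and 10133 Control cell barcodes with 80288883, 81816397 and 83281019 unique molecular identifiers (UMIs, each counting 1 captured mRNA molecule). After filters on genes, mitochondrial share and doublet score, 9373 PD00, 11285 Model and 9368 Control cells remained, with a median of 4574, 4048 and 5231.5 UMIs. PD00 and Model shared 43 barcodes, Model and Control 37, and PD00 and Control 31. Cell types were gated by markers that include no member of the set: a cell entered a gate when it held at least 3 of the gate's markers and passed no other gate, which placed 5947 PD00, 6934 Model and 7071 Control cells. Another 1452, 1828 and 472 cells passed no gate and 1974, 2523 and 1825 passed several. Cells outside the gates are counted only in values for all kept cells. After these filters, 1 Model and 2 Control cells lay in the cardiomyocyte gate. Barcodes removed by the mitochondrial limit and cells that passed several gates are not in this count, so the amount of cardiac contamination was not determined.

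Promoter windows in RefSeq for GRCm38.p6 ran from 250 bases before to 50 bases after an annotated start. They were matched by Ensembl gene identifier or, failing that, by symbol for 64 of the 82 nuclear members and gave 69 windows. They were searched on both strands for the core of the nuclear respiratory factor 1 site (TGCGCA, which reads the same on both strands), the ETS core bound by GABP among others (CCGGAA) and the hypoxia response core (ACGTG, which can match on both strands of the same CACGTG). The NRF1 core stood in 23.2% of the member windows and in 7.76% of all 32851 windows. The ETS core stood in 36.2% of the member windows and in 14.9% of all windows, and the hypoxia core in 23.2% and 19.6%. The member windows also had a median of 19 CpG dinucleotides, against 7 over all windows, and these shares were not adjusted for it. The windows below are shown for 2 pairs of complex IV paralogs that the results turn on, a tissue-restricted member above its broadly expressed partner, and for the ATP synthase gene Atp5l; capitals mark the motif matches. Cox6b2 lies at chr7:4753045-4753344, minus strand, Cox6b1 at chr7:30626065-30626364, minus strand, Cox8b at chr7:140900397-140900696, minus strand, Cox8a at chr19:7217567-7217866, minus strand, and Atp5l at chr9:44920693-44920992, minus strand.
Cox6b2: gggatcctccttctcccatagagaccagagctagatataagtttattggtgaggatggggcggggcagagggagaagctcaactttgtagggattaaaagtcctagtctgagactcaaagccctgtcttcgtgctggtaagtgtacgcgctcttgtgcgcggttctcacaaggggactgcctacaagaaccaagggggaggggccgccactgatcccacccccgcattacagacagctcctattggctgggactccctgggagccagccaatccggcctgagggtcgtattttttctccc
Cox6b1: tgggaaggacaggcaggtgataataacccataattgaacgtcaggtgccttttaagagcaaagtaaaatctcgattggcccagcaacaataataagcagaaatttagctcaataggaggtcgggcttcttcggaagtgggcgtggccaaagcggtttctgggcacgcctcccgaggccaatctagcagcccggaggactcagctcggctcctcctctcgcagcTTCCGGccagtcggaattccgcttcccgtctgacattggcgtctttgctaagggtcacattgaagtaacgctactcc
Cox8b: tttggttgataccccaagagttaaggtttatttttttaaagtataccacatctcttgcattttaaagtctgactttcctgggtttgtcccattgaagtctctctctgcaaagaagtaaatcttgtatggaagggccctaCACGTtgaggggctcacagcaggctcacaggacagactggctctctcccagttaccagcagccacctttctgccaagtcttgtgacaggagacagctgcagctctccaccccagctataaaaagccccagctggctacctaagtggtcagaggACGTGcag
Cox8a: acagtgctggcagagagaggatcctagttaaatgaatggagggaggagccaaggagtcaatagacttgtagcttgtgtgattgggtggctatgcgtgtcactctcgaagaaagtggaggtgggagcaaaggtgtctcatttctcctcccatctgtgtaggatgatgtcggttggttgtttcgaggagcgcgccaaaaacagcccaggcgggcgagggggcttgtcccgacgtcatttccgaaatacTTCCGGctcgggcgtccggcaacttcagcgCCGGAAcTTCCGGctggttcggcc
Atp5l: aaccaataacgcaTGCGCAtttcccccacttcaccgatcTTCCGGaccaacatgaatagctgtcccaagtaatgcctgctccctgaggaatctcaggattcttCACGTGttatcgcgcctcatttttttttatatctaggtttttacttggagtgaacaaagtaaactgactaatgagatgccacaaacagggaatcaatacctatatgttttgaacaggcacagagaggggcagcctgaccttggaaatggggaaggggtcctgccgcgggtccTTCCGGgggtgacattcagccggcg
The Cox6b2 window held none of the 3 cores and the Cox8b window held 2 hypoxia cores and neither of the others. Their broad partners held ETS cores, 1 in Cox6b1 and 3 in Cox8a. Of other broadly expressed members, Cox7a2 also held 1 ETS core, whereas Ndufa4 held none of the 3 cores. The Atp5l window held 1 NRF1 core, 2 ETS cores and 2 hypoxia matches from a single CACGTG. It was chosen from the windows that held both the NRF1 and the ETS core, so its content does not describe member windows in general. A match describes the letters of the window and is not evidence of binding.

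Over all kept cells, the mitochondrially encoded set took a larger share of the transcriptome in PD00 and Model than in Control, while the nuclear set differed little. The 13 mitochondrial genes held 5.90% of all UMIs in PD00 and 5.87% in Model, against 4.82% in Control. The 82 nuclear genes held 1.48% in PD00, 1.45% in Model and 1.43% in Control. Model over Control was thus 1.22 for the mitochondrial set and 1.02 for the nuclear set, and PD00 over Model was 1.01 and 1.02. There were 3.98 mitochondrial UMIs per nuclear-set UMI in PD00 and 4.04 in Model, against 3.38 in Control. The nuclear ratio of Model over Control lay on the other side of 1 when each cell counted equally (0.930) or each gate did (0.911), whereas the mitochondrial ratio stayed between 1.10 and 1.34 in every setting tried. Per cell, the median mitochondrial share was 4.98% in PD00 and 4.91% in Model, against 4.55% in Control. The upper quartiles lay further apart, at 6.78% and 6.79% against 5.55%, and the lower ones were 3.54% and 3.49% against 3.24%. Malat1, a nuclear-retained RNA, went the opposite way to the mitochondrial share, at 12285 CPM (UMIs per 1000000 UMIs) in PD00 and 12101 in Model, against 21777 in Control. Barcodes over the limit of 20% mitochondrial UMIs numbered 192 in PD00 and 187 in Model, against 76 in Control. Their part in the result was not tested.

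Few nuclear members differed strongly over all kept cells, and those that did were the tissue-restricted paralogs. Of the 82 nuclear members, 80 had the 50 UMIs required for a comparison; Cox7b2 and Cox8c had no UMI in any library. Between Model and Control 1 of the 80 was at least 1.5-fold higher, against 12.3% of all genes measured, and 4 were at least 1.5-fold lower, against 18.1% of all genes. Between PD00 and Model 1 was at least 1.5-fold higher, against 3.5% of all genes, and 3 were lower, against 7.29%. No mitochondrially encoded member passed 1.5-fold in either comparison. The median log2 difference over all genes was -0.13 for Model over Control and 0.00 for PD00 over Model.

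Complex I takes electrons from NADH. Its 38 nuclear members together stood at 0.959 in Model over Control and 1.01 in PD00 over Model, while its 7 mitochondrially encoded members stood at 1.13 in Model over Control and differed by less than 1% between PD00 and Model. By symbol the member with the most UMIs was Ndufa4, long listed with complex I and now assigned to complex IV, at 263 CPM in PD00 and 262 in Model, against 342 in Control (Model over Control 0.764, 0.75 to 0.778). Ndufa5, a small accessory subunit, stood at 80.4, 67.2 and 95.8 CPM in PD00, Model and Control (Model over Control 0.702, 0.678 to 0.727). Ndufv1, the flavoprotein that binds NADH, stood at 32.0 CPM in PD00 and 34.2 in Model, against 45.1 in Control. All 3 were highest in Control, whereas Ndufb6 was highest in Model (69.5, 79.3 and 64.8 CPM in PD00, Model and Control).

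Complex III carries electrons from ubiquinol to cytochrome c. Its 9 nuclear members stood together at 1.08 in Model over Control and 1.07 in PD00 over Model. Uqcrh, the hinge protein, had 493 CPM in PD00, 463 in Model and 383 in Control (Model over Control 1.21, 1.19 to 1.23), and Uqcrq likewise had a ratio of 1.21. Cyc1, the cytochrome c1 subunit, lay between 55.7 and 60.4 CPM in the 3 libraries. Uqcrb went the other way within the same complex, with 139 CPM in PD00 and 136 in Model, against 176 in Control (0.772, 0.752 to 0.791).

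Complex IV is cytochrome c oxidase and complex V makes ATP. The nuclear members of complex IV stood at 1.04 in Model over Control and those of complex V at 1.03; the ratios of PD00 over Model were 1.02 and 1.01. Cox4i1, the broadly expressed form of subunit 4, had 704 CPM in PD00, 739 in Model and 665 in Control. In complex V, Atp5l had 515, 482 and 446 CPM in PD00, Model and Control. Atp5o, which encodes the oligomycin-sensitivity stalk protein, had 166 CPM in PD00, 191 in Model and 144 in Control (Model over Control 1.33, 1.3 to 1.36). Atp5g1, Atp5g2 and Atp5g3, which encode the same mature subunit c of the rotor ring, did not move together: Model over Control was 0.858 for Atp5g1, 1.04 for Atp5g2 and 1.17 for Atp5g3.

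**Figure D1:**
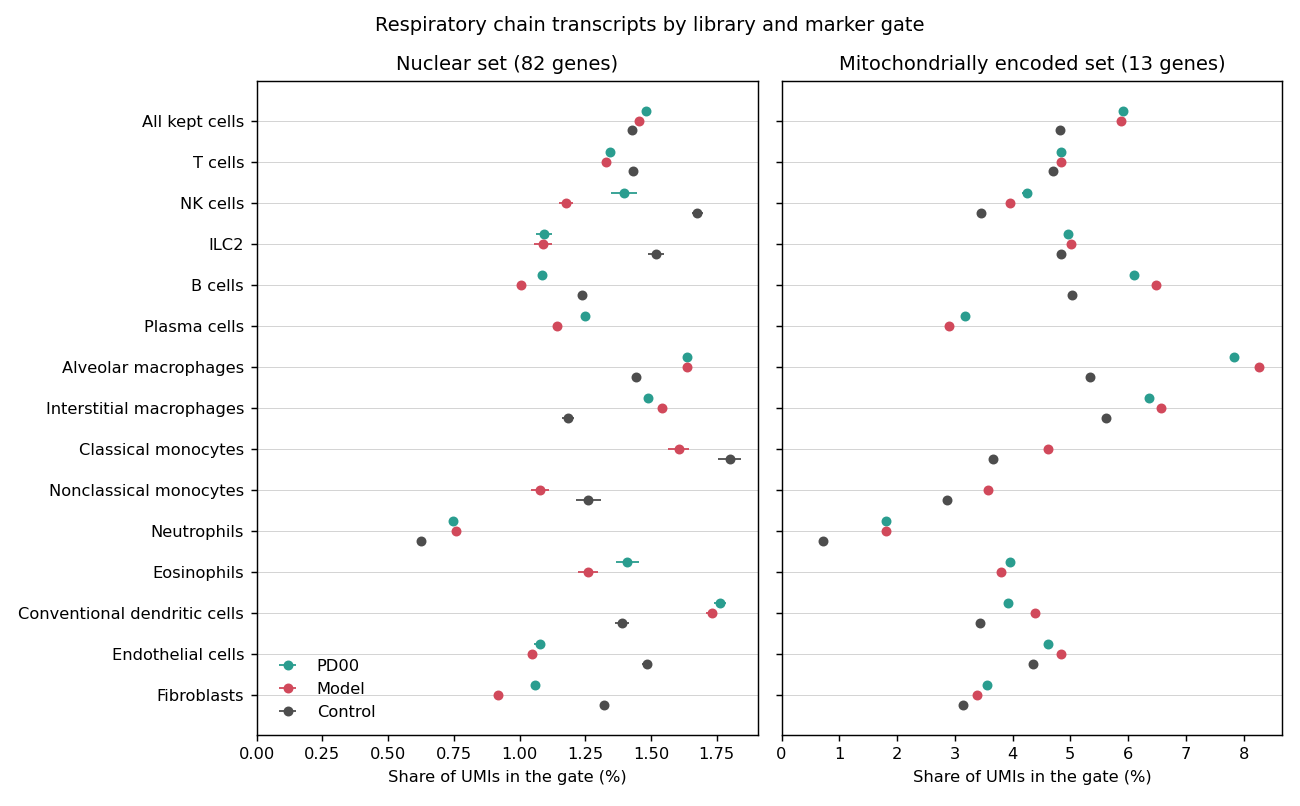
Share of all UMIs (percent) taken by the nuclear-encoded and the mitochondrially encoded set in each marker gate with at least 50 cells in a library, with PD00, Model and Control as separate points. The mitochondrial share of Model lies above that of Control in all 12 gates that both fill, from 1.81% in Model against 0.719% in Control in neutrophils to 4.84% in Model against 4.71% in Control in T cells.

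Within cell types, the mitochondrial and nuclear sets did not follow each other. In 12 gates with at least 50 cells in both Model and Control, the mitochondrial share was higher in Model in 12 of 12, though in T cells and ILC2 by no more than 1.04-fold, and the direction of both flipped under other scalings and, in ILC2, under a stricter mitochondrial limit (T cells down to 0.859, ILC2 down to 0.951). The nuclear share was lower in Model in 8 gates and higher in 4. Malat1 was lower in Model in 12 of the 12 gates, with ratios of 0.276 to 0.765, and the ribosomal protein share was lower in 11. Their part in these ratios was not tested.

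The gates with a lower nuclear share in Model were lymphoid, monocytic and structural. Fibroblasts had 1.06% in PD00 and 0.92% in Model, against 1.32% in Control (Model over Control 0.697, 0.681 to 0.712). NK cells, innate killer lymphocytes, had 1.40% in PD00 and 1.18% in Model, against 1.68% in Control (0.702, 0.683 to 0.721), from 66, 183 and 440 cells. Endothelial cells had 1.08% in PD00 and 1.05% in Model, against 1.48% in Control (0.705, 0.691 to 0.72). In all 3, Control was highest and the mitochondrial share was at the same time lowest in Control, with a Model over Control ratio of 1.08 in fibroblasts, 1.14 in NK cells and 1.11 in endothelial cells. ILC2, the innate lymphocytes that make type 2 cytokines, had 1.09% in PD00 and in Model, against 1.52% in Control (0.716, 0.689 to 0.744). B cells had 1.08% in PD00 and 1.01% in Model, against 1.24% in Control (0.814, 0.802 to 0.827), with mitochondrial shares of 6.10%, 6.48% and 5.03%. Ratios nearer to 1 were found in T cells (0.926), classical monocytes (0.892) and nonclassical monocytes (0.855), the monocytes from only 50 to 101 cells in Model and Control.

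In fibroblasts, NK cells, endothelial cells and ILC2 the nuclear ratio of Model over Control was below 1 for each of the 4 complexes. In fibroblasts 31 of 76 measured nuclear members were at least 1.5-fold lower in Model, against 17.8% of all genes there, and 0 were higher, against 7.71%. In NK cells 31 of 74 were lower, against 15.4%, and 0 higher, against 9.08%. In endothelial cells 31 of 74 were lower, against 13.3%, and 0 higher, against 6.4%. The 4 complexes stood between 0.644 and 0.76 in fibroblasts, between 0.67 and 0.761 in NK cells and between 0.671 and 0.76 in endothelial cells. Complex I, counted with Ndufa4, was lowest in fibroblasts and endothelial cells. In ILC2 25 of 67 were lower, against 19.5%, and 0 higher, against 13.2%. The median log2 difference of all genes was -0.15 in fibroblasts, -0.11 in endothelial cells and -0.07 in NK cells and ILC2. The cytosolic ribosomal protein share was lower in Model too, at 0.692 in NK cells and in endothelial cells, 0.752 in ILC2 and 0.843 in fibroblasts. At least 1.5-fold lower were 27 of 87 ribosomal protein genes in NK cells, 30 of 88 in endothelial cells, 19 of 83 in ILC2 and 5 of 89 in fibroblasts.

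The members with the firmest differences there, by the interval bound nearest to 1, came from several complexes. In fibroblasts Atp5g1 had 99.1 CPM in PD00 and 83.2 in Model, against 183 in Control (Model over Control 0.454, 0.36 to 0.567). Uqcrb had 156 CPM in PD00 and 115 in Model, against 237 in Control (0.488, 0.401 to 0.59). Ndufa13 stood at 143 CPM in Model, against 268 in Control (0.533), but its locus overlaps Yjefn3 over 8379 bases, so their reads may be hard to separate. In endothelial cells too Control was highest for Uqcrb (171 CPM in PD00, 157 in Model, 289 in Control), Atp5g1 (89.8, 100 and 182 CPM) and Cox8a (310 CPM in Model, 548 in Control). In NK cells Ndufa4 had 382 CPM in PD00 and 256 in Model, against 526 in Control (0.486, 0.405 to 0.58), and Atp5md and Cox5b stood at 0.503 and 0.54. In ILC2 Ndufa12 rested on 13 Model and 76 Control UMIs (0.326, 0.166 to 0.591), Ndufa4 stood at 0.424 and Atp5g1 at 0.409.

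In B cells 9 of 74 were lower, against 9.34% of all genes, and 0 higher, against 13.2%, led by Ndufa5 at 35.9 CPM in Model against 78.4 in Control (0.458), with Atp5md at 0.597 and Cox7a2 at 0.648. In T cells 1 of 74 was lower, against 8.01%, and 0 higher, against 21.7%. That member was Cox7a2l, which encodes a supercomplex assembly factor joining complexes III and IV, at 316 CPM in PD00 and 348 in Model, against 531 in Control (0.655, 0.627 to 0.683). The median of all genes in T cells was 0.17 log2 higher in Model, the ribosomal protein share was 20.3% in PD00 and 19.0% in Model against 31.5% in Control, and the 8 ILC2 markers, none at 0, summed to 2128 CPM in PD00 and 1679 in Model, against 422 in Control; their part was not tested.

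Monocyte counts gave wide intervals. Classical monocytes had 3 of 66 members higher, against 11% of all genes, and 6 lower, against 12.4%, with Ndufa13 at 0.488, Ndufa1 at 0.542, Atp5d at 0.65 and Ndufb9 at 1.51. Nonclassical monocytes had 3 of 49 higher, against 10.3%, and 8 lower, against 12.3%, with Cox7b at 0.527, Atp5l at 0.652 and Ndufb9 at 0.557. Ndufb9, an accessory subunit of complex I, thus lay on opposite sides of 1 in the 2 monocyte gates.

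**Figure D2:**
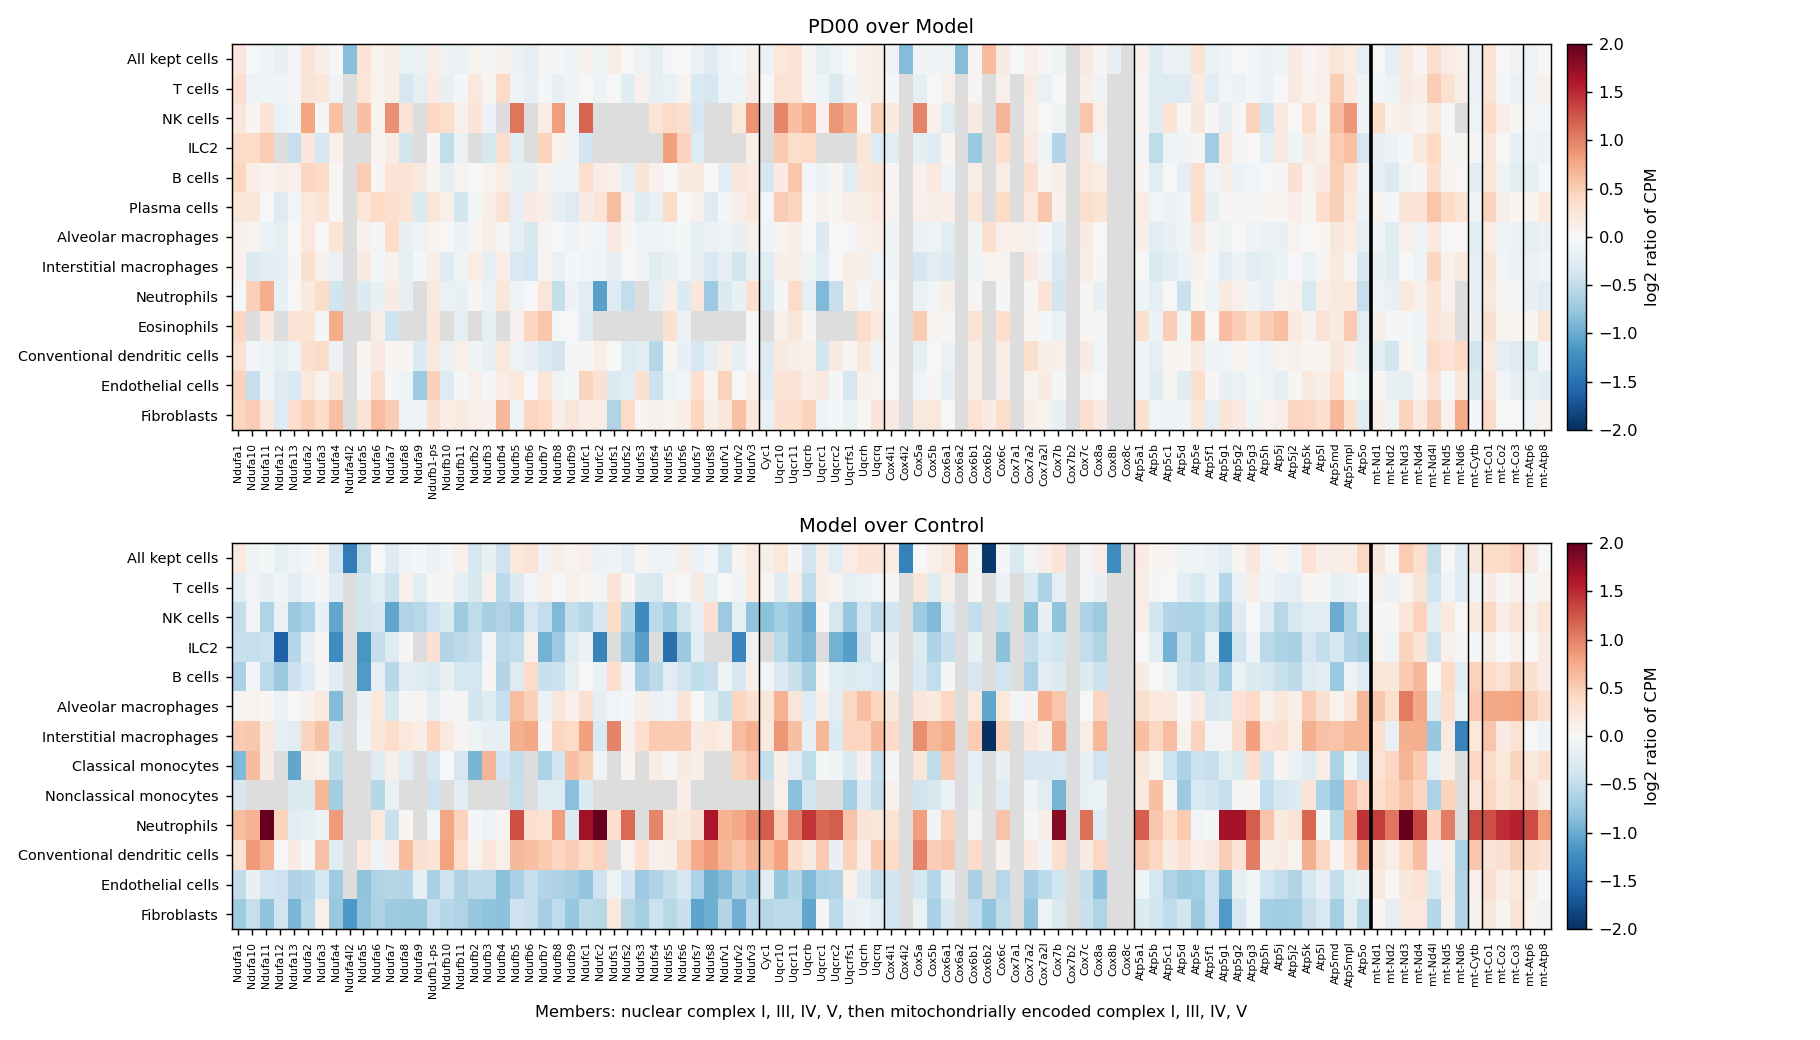
Log2 ratio of CPM for every member (columns, grouped by complex) in every gate (rows), PD00 over Model above and Model over Control below; grey marks members with fewer than 50 UMIs. In the lower panel fibroblasts, endothelial cells and NK cells are mostly below 0 for nuclear members, while interstitial macrophages, neutrophils and dendritic cells are mostly above.

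The 4 gates with a higher nuclear share in Model were macrophages, dendritic cells and neutrophils. Interstitial macrophages had 1.49% in PD00 and 1.54% in Model, against 1.18% in Control (Model over Control 1.30, 1.28 to 1.33, and 1.06 with at least 2 markers per gate), and mitochondrial shares of 6.35%, 6.57% and 5.62%. Conventional dendritic cells had 1.76% in PD00 and 1.73% in Model, against 1.39% in Control (1.25, 1.22 to 1.28, and 1.12 with median-of-ratios scaling). Alveolar macrophages had 1.64% in PD00 and in Model, against 1.44% in Control (1.13, 1.12 to 1.14). Here too PD00 and Model lay together, apart from Control. The alveolar macrophage gate had the highest mitochondrial share of the compared gates in PD00 and Model, 7.83% and 8.27%, against 5.33% in Control (1.55, 1.55 to 1.56).

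Member counts in these gates were less one-sided against the other genes. In interstitial macrophages 21 of 75 members were at least 1.5-fold higher, against 22% of all genes, and 1 lower, against 16.9%. In conventional dendritic cells 16 of 73 were higher, against 21.4%, and 0 lower, against 9.56%. In alveolar macrophages 5 of 76 were higher, against 12.4%, and 2 lower, against 28.8%. The share of members that were higher was near that of all genes in interstitial macrophages and dendritic cells and under it in alveolar macrophages, and the share that were lower was under it in all 3.

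Cox5a, Uqcr10 and Atp5g3 were named by the same rule in both interstitial macrophages and dendritic cells. Cox5a, subunit 5A of complex IV, had 278 CPM in PD00 and 351 in Model, against 185 in Control, in interstitial macrophages (Model over Control 1.90, 1.62 to 2.25), and 363 CPM in Model against 182 in Control in dendritic cells (1.99, 1.63 to 2.44). Uqcr10, a small subunit of complex III, stood at 1.85 and 1.74 in the same gates. Atp5g3 stood at 1.77 and 2.03. In alveolar macrophages Cox7a2l had 417 CPM in PD00 and 427 in Model, against 258 in Control (1.65, 1.58 to 1.73), the reverse of its order in T cells. Uqcr10 had 281 CPM in PD00 and 269 in Model, against 167 in Control (1.61), and Atp5o stood at 1.59. Complex I was the exception among the nuclear members of alveolar macrophages, at 0.99, beside 1.28 for complex III, 1.21 for complex IV and 1.15 for complex V. Ndufa4 was lower there, with 224 CPM in PD00 and 186 in Model, against 341 in Control (0.545, 0.512 to 0.58). It was counted with complex I by its symbol, and the complex ratios were not recomputed with it in complex IV.

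The macrophage gates also differed in other markers between the libraries. The 8 alveolar macrophage markers summed to 4931 CPM in PD00 and 3800 in Model, against 6728 in Control, in their own gate, and the 7 interstitial macrophage markers, none at 0, to 174 and 209, against 29.4. In the interstitial macrophage gate the 8 alveolar macrophage markers summed to 733 CPM in PD00 and 754 in Model, against 172 in Control, where 1 was at 0. Malat1 in alveolar macrophages was 5994 CPM in PD00 and 5333 in Model, against 19314 in Control. The part of these differences in the result was not tested.

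Neutrophils had the lowest shares and the largest ratio of the mitochondrial set. Their mitochondrial genes took 1.82% of UMIs in PD00 and 1.81% in Model, against 0.719% in Control (Model over Control 2.52, 2.47 to 2.58), and 11 of 12 measured were at least 1.5-fold higher. The nuclear set took 0.746% in PD00 and 0.757% in Model, against 0.625% in Control (1.21, 1.18 to 1.24). Of 71 nuclear members 30 were at least 1.5-fold higher, against 28.9% of all genes, and 0 lower, against 5.31%. Ndufc2, an accessory subunit of complex I, had 63 UMIs in Model and 8 in Control (35.2 and 4.82 CPM, ratio 7.31, 3.49 to 17.7), with 22 in PD00 (16.5 CPM). Cox7b stood at 3.53 and Atp5g2 at 3.16, with 89.5 CPM of Atp5g2 in PD00, 83.8 in Model and 26.5 in Control. The gate's cells differed between libraries, however: S100a8 and S100a9, calgranulin mRNAs abundant in mature neutrophils, reached 1% of UMIs in 86.8% of the gated cells in PD00 and 82.2% in Model, against 97.4% in Control. The 7 eosinophil markers in the gate summed to 744 CPM in PD00 and 771 in Model, none at 0, against 367 in Control with 2 at 0.

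Among neutrophils with S100a8 and S100a9 at 1% of UMIs or more, 550 PD00, 657 Model and 819 Control cells, the nuclear ratio turned round and the mitochondrial ratio was smaller. Its limit was set once the gate had been examined. The nuclear set took 0.56% in PD00 and 0.55% in Model, against 0.61% in Control (Model over Control 0.894, 0.87 to 0.92). The mitochondrial set took 1.21% in PD00 and 1.23% in Model, against 0.69% in Control (1.78, 1.74 to 1.82), and 8 of 12 of its genes remained at least 1.5-fold higher. Of 63 nuclear members 8 were then higher, against 18.4% of all genes, and 3 lower, against 6.16%. Atp5g2 had 39.6 CPM in PD00 and 35.3 in Model, against 25.2 in Control (1.40, 0.908 to 2.17), Cox7b stood at 1.80 (1.22 to 2.66), and Ndufc2, on 15 Model and 6 Control UMIs, at 2.87 (1.05 to 9.03). The cells below 1% numbered 84 in PD00, 142 in Model and 22 in Control and had mitochondrial shares of 5.39%, 4.03% and 2.06%.

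**Figure D3:**
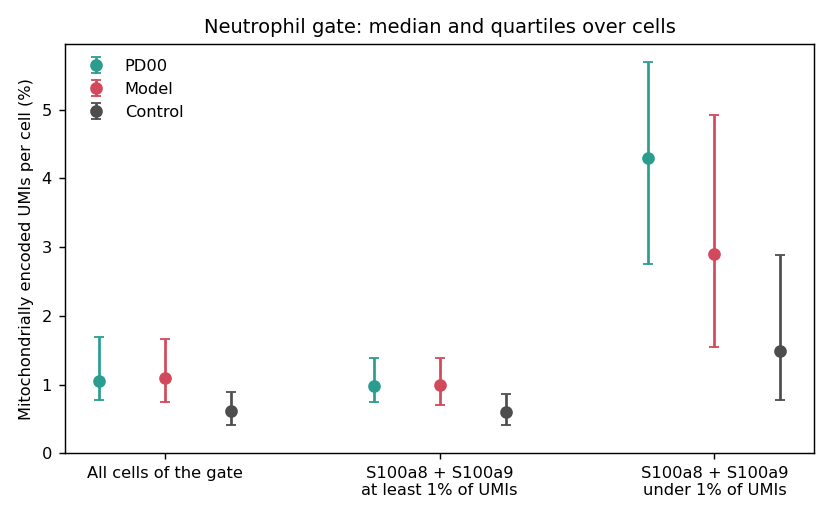
Mitochondrially encoded UMIs per cell (percent) in the neutrophil gate, as the median (points) and quartiles (bars) over cells, for all its cells and for those with S100a8 and S100a9 at least or under 1% of UMIs, in PD00, Model and Control. The median of Control is lowest in all 3 groups of cells, at 1.06% in PD00, 1.10% in Model and 0.617% in Control over the whole gate and at 0.977%, 0.993% and 0.610% at or above the limit.

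Single members could stand on opposite sides of 1 in different cell types. Of 75 nuclear members measured in at least 2 gates, 32 were at least 1.5-fold higher in Model in some gate and at least 1.5-fold lower in another, with intervals off 1 both times, against 17% of all genes, a background not matched to the level of the members. Of these 32, 9 were higher in no gate but neutrophils. Without the neutrophil gate 23 remained, against 14.5% of all genes, and 24 met the rule with that gate limited to cells with S100a8 and S100a9 at 1% or more, against 15.4%. None of the 13 mitochondrial members met it. Cox7a2l was higher in alveolar macrophages (1.65) and lower in T cells (0.655). Uqcr10 was higher in alveolar macrophages (1.61) and lower in endothelial cells (0.589, 0.485 to 0.713), and Cox5a was higher in dendritic cells (1.99) and lower in NK cells (0.608, 0.473 to 0.774). Ndufa4 kept nearer to a single direction, below 1 in 11 of 12 gates and at least 1.5-fold lower in 6. Its exception was the neutrophil gate, at 1.81, and that ratio was 1.08 (0.795 to 1.48) among the cells with S100a8 and S100a9 at 1% or more. Atp5f1 and Ndufa13 were also below 1 in 11 of 12 gates, while Atp5a1, the catalytic-ring alpha subunit of ATP synthase, was above 1 in 9 of 12.

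The 13 mitochondrially encoded genes did not move as a block either. Transcripts of complex IV had the largest ratio over all kept cells, 1.32 in Model over Control, beside 1.13 for complex I, 1.17 for mt-Cytb, the complex III member, and 1.13 for complex V. mt-Co3 had 9215 CPM in PD00 and 9715 in Model, against 7084 in Control (Model over Control 1.37, 1.37 to 1.38). mt-Co2 had 9234 and 9257 CPM, against 7118 (1.30). mt-Nd3 had 779 CPM in PD00 and 681 in Model, against 477 in Control (1.43, 1.41 to 1.45). In each of these 3, both PD00 and Model lay above Control. mt-Nd4 stood at 1.27, mt-Nd1 at 1.17, mt-Atp6 at 1.14, mt-Nd2 at 1.02, mt-Nd5 at 1.01 and mt-Atp8 at 0.989. The members mt-Co1, mt-Co2, mt-Co3, mt-Nd3 and mt-Nd4 were each above 1 in 12 of 12 gates, but by as little as 0.01 on the log2 scale (mt-Co2 in ILC2).

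mt-Nd4l and mt-Nd6 differed from the rest. mt-Nd4l, at positions 9877 to 10173 of chromosome M in the GRCm38 annotation, had 523 CPM in PD00 and 408 in Model, against 562 in Control (Model over Control 0.726, 0.715 to 0.736). It was below 1 in 11 of 12 gates, down to 0.59 (0.541 to 0.644) in interstitial macrophages. The exception was the whole neutrophil gate, where all 12 measured mitochondrial genes were higher in Model, by at least 0.458 on the log2 scale. Among the cells of that gate with S100a8 and S100a9 at 1% or more, mt-Nd4l stood at 0.988 (0.798 to 1.22). Its reading frame shares 7 bases with that of mt-Nd4, and mt-Atp8 shares 43 with mt-Atp6; each pair is also known to share a bicistronic mRNA, so the split of counts within these pairs is uncertain. mt-Nd6, the only member encoded on the light strand, had 40.5 CPM in PD00 and 38.1 in Model, against 45.3 in Control (0.84, 0.8 to 0.882), and was below 1 in 9 of the 9 gates that measured it.

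mt-Co1 and mt-Nd4l also set PD00 apart from Model. mt-Co1, the catalytic subunit of complex IV, had 11380 CPM in PD00, 9302 in Model and 7222 in Control, with PD00 over Model at 1.22 and above 1 in 12 of 12 gates. mt-Nd4l stood at 1.28 (1.26 to 1.3) in PD00 over Model and was above 1 in 12 of 12 gates. mt-Cytb, with 4723 CPM in PD00, 5179 in Model and 4435 in Control, stood at 0.912 and was below 1 in 12 of 12. mt-Nd2 was below 1 in 11. As a share of the mitochondrial set, mt-Co1 made up 19.3% in PD00, 15.8% in Model and 15.0% in Control, mt-Nd4l 0.885%, 0.695% and 1.17%, and mt-Atp6 17.4%, 18.9% and 20.2%. The composition of the mitochondrial set thus differed between PD00 and Model although its total did not, at 5.90% and 5.87%.

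**Figure D4:**
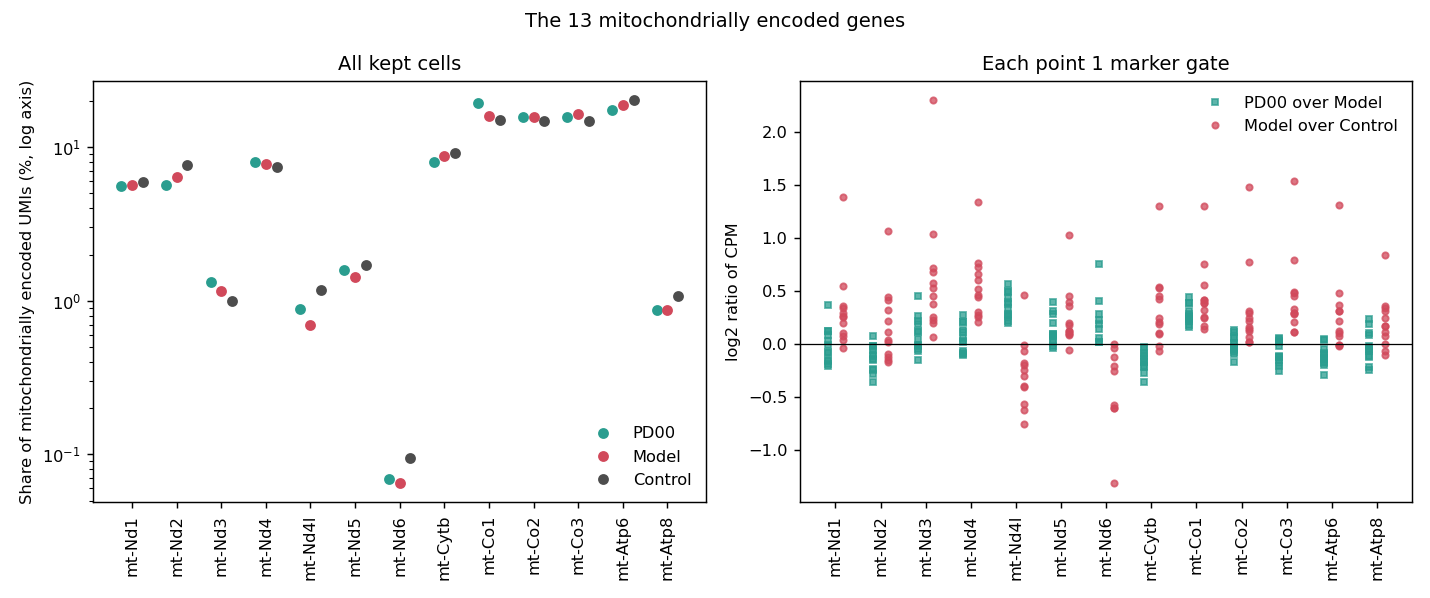
Left, the share of mitochondrially encoded UMIs (percent, log axis) taken by each of the 13 genes over all kept cells; right, log2 ratios of their CPM, 1 point per gate, for PD00 over Model and Model over Control. On the right, in Model over Control mt-Nd4l and mt-Nd6 lie mostly below 0 while the mt-Co genes lie above it, and in PD00 over Model mt-Co1 and mt-Nd4l lie above 0 in every gate.

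PD00 and Model were close in most gates for both sets as a whole. Over 12 gates with at least 50 cells in both, PD00 over Model for the nuclear set ran from 0.965 in interstitial macrophages to 1.19 in NK cells, and for the mitochondrial set from 0.892 in dendritic cells to 1.10 in plasma cells, the plasma cell value being 0.953 with median-of-ratios scaling. No gate reached 1.2-fold in either set. The nuclear set stood at 1.19 (1.14 to 1.24) in NK cells, at 1.15 (1.12 to 1.18) in fibroblasts and at 1.12 (1.07 to 1.17) in eosinophils, a gate with 248 PD00, 312 Model and 5 Control cells. Over the alternative settings the lowest values were 1.10 in NK cells, 1.09 in fibroblasts and 1.01 in eosinophils. In NK cells and fibroblasts the nuclear share of PD00 lay between those of Model and Control. The same held, with smaller differences from Model, in B cells, T cells, endothelial cells, interstitial macrophages and neutrophils. In conventional dendritic cells the PD00 share lay above both, and in ILC2 and alveolar macrophages PD00 and Model were nearly level.

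In NK cells 16 of 64 members were at least 1.5-fold higher in PD00 than in Model, against 11.4% of all genes, and 0 lower, against 5.05%, from 66 PD00 cells. Cox5a had 290 CPM in PD00 and 145 in Model (1.99, 1.42 to 2.78), with 239 in Control. Ndufb5 stood at 2.10 (1.35 to 3.25) and Uqcr10 at 1.97 (1.31 to 2.95). In fibroblasts 4 of 75 were higher, against 10.1%, and 1 lower, against 7.01%. Ndufa4 had 268 CPM in PD00 and 177 in Model (1.51, 1.27 to 1.81), with 300 in Control, and Ndufa6 and Ndufb4 stood at 1.54 and 1.57; the lower one was Ndufs1 at 0.658 (0.412 to 1.04). In eosinophils 4 of 53 were higher, against 5.51%, and 0 lower, against 5.76%, with Ndufa4 at 421 CPM in PD00 and 252 in Model (1.67, 1.25 to 2.24), Atp5e at 1.51 and Atp5j at 1.52.

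Elsewhere the members differed little between PD00 and Model. In T cells, B cells, alveolar macrophages, interstitial macrophages and dendritic cells no nuclear member passed 1.5-fold, where 6.25%, 5.96%, 8.46%, 6.14% and 8.86% of all genes did in either direction. Neutrophils had 1 of 72 higher, against 4.53%, and 3 lower, against 6.5%: Ndufa11 at 1.66, and Ndufc2 at 0.47, Uqcrc1 at 0.542 and Ndufs8 at 0.601, on 21 to 72 UMIs per library. ILC2 had 2 of 57 higher, against 12.4%, and 3 lower, against 3.3%, with Ndufs5 at 1.77, Atp5mpl at 1.51, Cox6b1 at 0.599, Atp5f1 at 0.615 and Cox7b at 0.666. Plasma cells had 1 of 74 higher, against 15.3%, Ndufs1 at 1.54, and endothelial cells 1 of 74 lower, against 5.31%, Ndufa9 at 0.605.

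Several subunits have paralogs restricted to certain tissues: Cox4i2 is the lung and hypoxia form of subunit 4, Cox6a2, Cox7a1 and Cox8b are heart and muscle forms, Cox6b2, Cox7b2 and Cox8c are testis forms, and Ndufa4l2 is a hypoxia-induced relative of Ndufa4. Cox6b2 was the one seen in a large share of an immune cell type. Over all kept cells it had 14.8 CPM in PD00 and 9.61 in Model, against 36.7 in Control (Model over Control 0.262, 0.241 to 0.283; PD00 over Model 1.54, 1.41 to 1.69). The alveolar macrophage gate held 399 of its 1142 UMIs in PD00, 160 of 766 in Model and 1564 of 2838 in Control, and its cells numbered 838, 521 and 2176, and the part of gate size in the values over all cells was not tested. Within the gate Cox6b2 stood at 33.0 CPM in PD00 (29.9 to 36.4) and 26.5 in Model (22.6 to 31), against 54.4 in Control (51.8 to 57.2), a Model over Control ratio of 0.487 (0.411 to 0.573).

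At least 1 Cox6b2 UMI was found in 27.8% of alveolar macrophages in PD00 and 18.6% in Model, against 40.4% in Control, at median depths of 13789, 10619 and 13543 UMIs. In T cells, taken as the level of free RNA, the shares were 0.911%, 0.626% and 1.14% at 4101.5, 4285 and 4197 UMIs, and the levels were 2.60, 1.30 and 2.66 CPM. Its broad partner Cox6b1 had 449 CPM in PD00 and 470 in Model, against 405 in Control, in alveolar macrophages, so that Cox6b2 made up 6.85%, 5.34% and 11.9% of the pair. Cells that passed several gates held 578 of 1142 Cox6b2 UMIs in PD00, 452 of 766 in Model and 978 of 2838 in Control. The cell of origin of Cox6b2 is therefore only partly resolved. Among the single gates, fibroblasts held the next most after alveolar macrophages, with 48.0 CPM in PD00 and 42.9 in Model, against 74.2 in Control, and 18.8%, 20.3% and 23.9% of the pair. Control was highest in both gates, and likewise in interstitial macrophages, at 5.64 CPM in PD00 and 5.36 in Model, against 23.0 in Control (20 UMIs).

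The other restricted paralogs were rare over all kept cells. Cox4i2 had 1.73 CPM in PD00 and 3.15 in Model, against 8.04 in Control, over all kept cells (Model over Control 0.392; PD00 over Model 0.549). It stood at 326, 123 and 279 CPM in the mural gate of 12 PD00, 29 Model and 55 Control cells, where 1 cell gave 24 of 29, 20 of 32 and 30 of 100 UMIs. T cells held 0, 0 and 1 Cox4i2 UMI, which for a count of 0 allows up to 0.289 CPM in PD00 and 0.230 in Model. Ndufa4l2 followed the same order over all kept cells, with 0.975 CPM in PD00 and 1.76 in Model, against 4.62 in Control (Model over Control 0.38, 0.31 to 0.463), and stood at 258, 80.9 and 125 CPM in mural cells and at 6.19, 10.7 and 23.9 CPM in fibroblasts. Many UMIs of both lay in cells that passed several gates, 96 of 133 in PD00, 199 of 251 in Model and 489 of 621 in Control for Cox4i2, and 36 of 75, 98 of 140 and 238 of 357 for Ndufa4l2, so their cell of origin is only partly resolved.

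Cox8b appeared in fibroblasts, with 20 UMIs in PD00, 4 in Model and 43 in Control (15.5, 3.58 and 15.6 CPM), and alveolar macrophages and T cells together had 1 UMI. Cox6a2 was higher in Model over all kept cells, at 1.92 CPM in PD00, 3.51 in Model and 1.94 in Control (Model over Control 1.81, 1.48 to 2.22), but 46 of its 280 Model UMIs came from 1 cardiomyocyte-gated cell and 183 from cells that passed several gates. It was also found in the plasmacytoid dendritic cell gate, with 11 UMIs in 3 PD00 cells and 10 in 5 Model cells. Of the 28 Cox8b UMIs of Model, 17 came from that same gate of 1 cardiomyocyte-gated cell. Cox7a1 stood in alveolar macrophages at 5.71, 5.30 and 5.53 CPM in PD00, Model and Control, and at 3.63, 3.66 and 4.54 CPM over all kept cells.

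**Figure D5:**
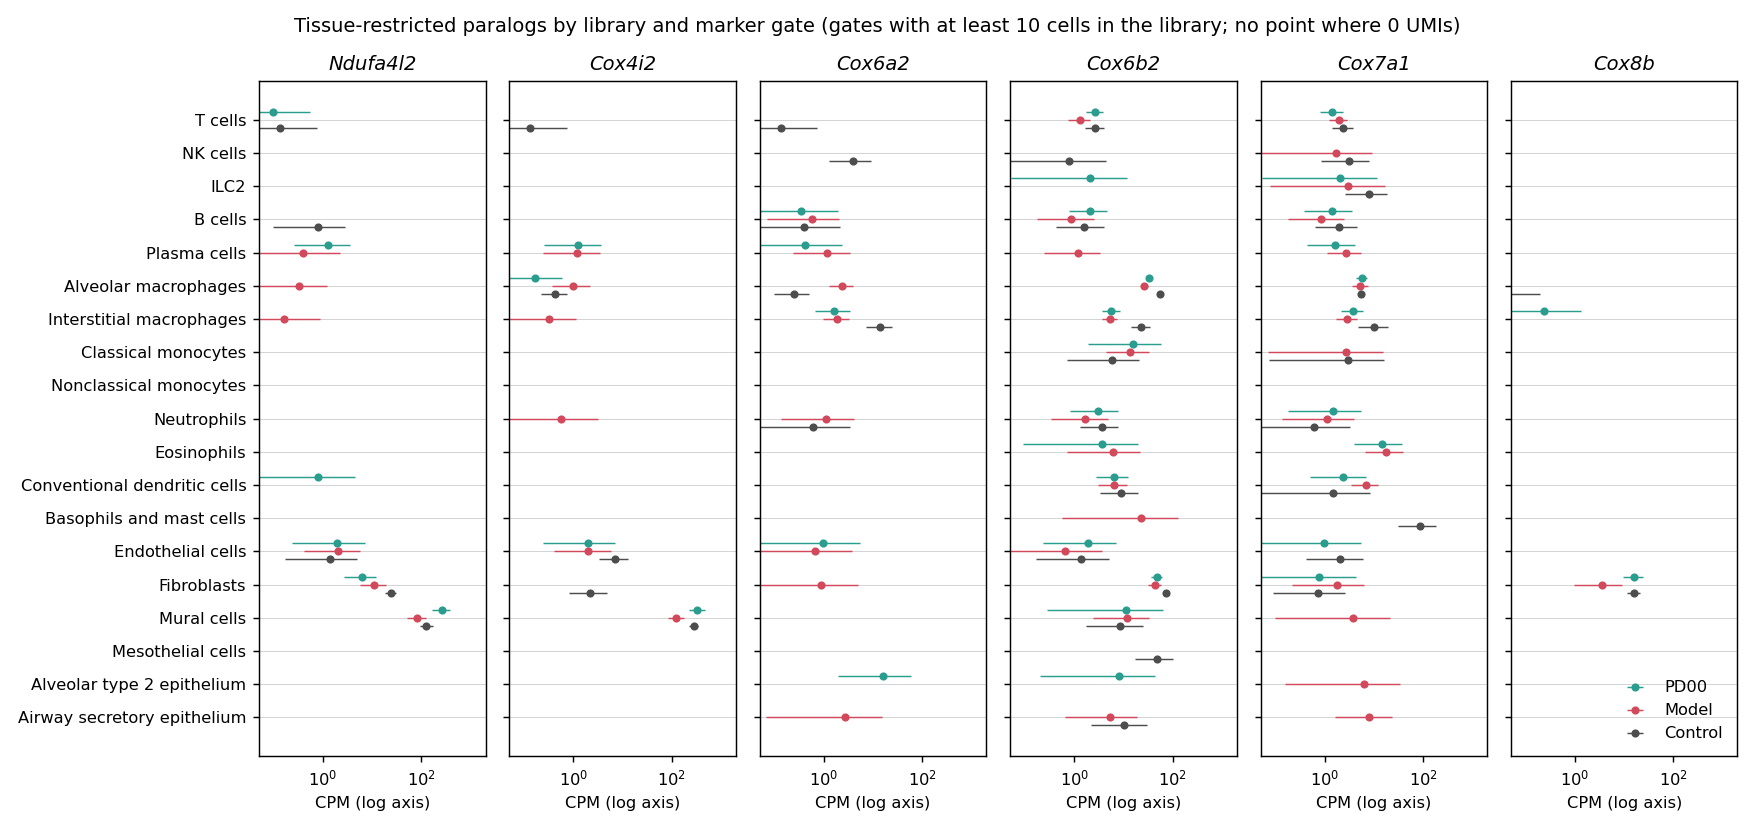
CPM (log axis) of 6 tissue-restricted paralogs in the gates where they were found, with exact 95% binomial intervals, for PD00, Model and Control. Gates need 10 cells, and a library with 0 UMIs has no point. Cox6b2 is highest in Control in alveolar macrophages (54.4 CPM) and fibroblasts (74.2 CPM), and the mural values of Cox4i2 rest on 12 to 55 cells.

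The other genes of the pathway showed few differences over all kept cells. All 4 genes of complex II, succinate dehydrogenase, were within 1.5-fold in both comparisons, with Sdha at 113 CPM in PD00 and 102 in Model, against 91.0 in Control, and Sdhb at 71.3 and 76.3, against 81.9. Their median log2 ratio of Model over Control was 0.19. Of 15 complex I assembly factors 2 were at least 1.5-fold lower in Model than in Control (median -0.17), and of 25 complex III and IV assembly genes 1 was higher and 1 lower (median -0.16). Ndufaf8 stood at 0.773 and Ndufaf4 at 1.07 in Model over Control, and the copper chaperone Cox17 at 1.08 and Pet100 at 0.887. Of 14 electron carriers 1 was lower in Model, Coq10b, a coenzyme Q binding protein, at 0.662; cytochrome c (Cycs) had 141 CPM in PD00 and 157 in Model, against 148 in Control. Over all genes, 12.3% were higher and 18.1% lower.

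The machinery that expresses mitochondrial DNA stayed within 1.5-fold for all 12 genes (median -0.03), with Slirp at 0.948 and Ssbp1 at 1.01 in Model over Control. Of 78 genes of the mitochondrial ribosome 3 were lower and 0 higher (median -0.17), among them Mrpl33 at 0.648, while Mrpl52 stood at 0.984. Of 96 measured cytosolic ribosomal protein genes 2 were lower (median -0.19), with Rps29 at 0.828 and Rplp1 at 0.796. Of 10 carriers and uncoupling proteins 1 was lower (median -0.16); Ucp2 had 1049 CPM in PD00 and 821 in Model, against 918 in Control, and Slc25a3, the phosphate carrier, stood at 1.24 in Model over Control. Of 9 measured regulators 2 were higher and 2 lower, with Pparg, a regulator of lipid metabolism that alveolar macrophages need, at 28.9 CPM in PD00 and 20.8 in Model, against 58.0 in Control (0.359, 0.339 to 0.379) and Yy1 at 0.879. Within the alveolar macrophage gate Pparg stood at 53.6 CPM in PD00 and 40.3 in Model, against 97.2 in Control (0.414, 0.362 to 0.473). Of 12 immediate-early genes, which respond to tissue dissociation, 5 were lower in Model than in Control, against 18.1% of all genes, and 0 higher, against 12.3% (median -0.41), with Junb at 1.11 and Jund at 0.759. In PD00 over Model the medians of these lists lay between -0.07 and 0.05.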

How the data were processed

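Whole-lung single-cell suspensions were profiled as 3 libraries by droplet-based 3′ RNA sequencing. The authors deposited a matrix of UMI counts per gene and barcode for each library, not normalized; Cell Ranger 3.1.0, STAR and mm10 appear in the submitters' processing notes, and cellranger 5.0.0 per the file headers. The doublet handling by the authors is not given in the sources used here.

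Barcodes with under 200 genes, under 500 UMIs or over 20% mitochondrial UMIs were removed, then those with a Scrublet score of 0.2 or more (scanpy 1.11.5), which took 274 PD00, 252 Model and 421 Control cells; the caller's own threshold would have taken 3, 0 and 421. The limit on mitochondrial UMIs acts on the measured set itself. Counts were summed per library and gate and divided by all UMIs (CPM). Ratios carry exact conditional-binomial (Clopper-Pearson) intervals at 95%, checked on simulated counts that held counting error only. That check does not cover variation between cells or animals. Levels carry exact binomial (Clopper-Pearson) intervals at 95%, which were not checked in this way. SciPy 1.17.1, NumPy 2.4.6, pandas 2.3.3, matplotlib 3.10.9 and Python 3.11.15 were used. A difference counted when CPM lay at least 1.5-fold apart and the gene had 50 UMIs over both libraries; a gate was compared with 50 cells in both. UMIs of free RNA were not removed. A count of 0 was read as up to 3 UMIs.

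Named were the 13 mitochondrial genes, the restricted paralogs with their partners, the highest and lowest nuclear member of each complex, in each comparison the 3 members highest and 3 lowest by the interval bound nearest to 1 among those 1.5-fold apart, and the 2 genes with most UMIs of each further list. Other members named were chosen after their values were seen. The members, gates and lists were chosen with earlier results of these data known. Alternatives varied the markers per gate, the mitochondrial limit, the gene minimum, doublets, scaling and the neutrophil gate.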

Additional observations from a re-analysis of the deposited data

Results flagged for a closer look

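The nuclear set stood on opposite sides of 1 in Model over Control between cell types, by at least 1.2-fold. It was lower in fibroblasts (0.697), NK cells (0.702), endothelial cells (0.705), ILC2 (0.716) and B cells (0.814), and higher in interstitial macrophages (1.30), conventional dendritic cells (1.25) and neutrophils (1.21). The higher ratios fell under 1.2-fold in some settings, to 1.06 in interstitial macrophages with at least 2 markers per gate, to 1.18 and 1.12 in dendritic cells without mitochondrial, ribosomal protein and haemoglobin genes in the scaling and with median-of-ratios factors, and to 0.894 in neutrophils with S100a8 and S100a9 at 1% or more. Neutrophils were also under it with 2 or 4 markers per gate (1.14 and 1.06) and with median-of-ratios factors (1.004). The difference between the cell types was not tested, since each ratio rests on 1 library per group. Cox7a2l, the supercomplex assembly factor, was at least 1.5-fold apart in opposite directions, at 0.655 in T cells and 1.65 in alveolar macrophages, and this difference was not tested either.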

How the results depend on the processing

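For Model over Control in all kept cells, the nuclear ratio of 1.02 became 1.01 with a limit of 10% mitochondrial UMIs, 1.03 when mitochondrial genes were left out of the scaling, 1.01 without mitochondrial, ribosomal protein and haemoglobin genes, 1.12 with median-of-ratios size factors, 0.930 over cells weighted equally and 0.911 over gates weighted equally. The mitochondrial ratio of 1.22 became 1.10, 1.25 with no limit, 1.22 with doublets kept, and 1.23, 1.21, 1.34, 1.21 and 1.22 under those same scalings and weights. The 5 nuclear members past 1.5-fold became 3 over gates, and the 0 mitochondrial members became 2 with median-of-ratios factors. For PD00 over Model, the nuclear ratio of 1.02 became 1.02 at the 10% limit, with doublets kept and with median-of-ratios factors, 1.03 without mitochondrial, ribosomal protein and haemoglobin genes and over cells, and 1.05 over gates. The 4 nuclear members past 1.5-fold became 0 over gates. The mitochondrial ratio of 1.01 became 1.03 at the 10% limit, 1.01 with no limit, with doublets kept and without mitochondrial, ribosomal protein and haemoglobin genes, 1.003 with median-of-ratios factors, 1.002 over cells and 0.985 over gates. With 2 markers per gate the nuclear set was lower in Model in 5 gates of 8 compared, beside 8 of 12, and 1 ratio of PD00 over Model reached 1.2-fold, as 1 did when mitochondrial, ribosomal protein and haemoglobin genes were left out of the scaling, beside 0. The causes were not tested. By gate, Model over Control crossed 1 for the mitochondrial set of T cells and ILC2 and, under the S100a8 and S100a9 limit, for the nuclear set of neutrophils. PD00 over Model crossed 1 in at least 1 setting for the nuclear set of T cells, ILC2, plasma cells (1.09 to 0.958), alveolar macrophages (6 settings of 10), neutrophils and endothelial cells. It also crossed 1 for the mitochondrial set of T cells, NK cells, ILC2, plasma cells (1.10 to 0.953), alveolar macrophages, neutrophils, eosinophils, endothelial cells (0.952 to 1.16) and fibroblasts, and for no other compared gate. By gate, the scaling without mitochondrial, ribosomal protein and haemoglobin genes, median-of-ratios factors and the neutrophil limit were added after the data were seen. No paired analysis was possible because each group has 1 library, and for the same reason no replicate could be left out. Depth limits the monocyte, ILC2, eosinophil and mural values.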

Other observations

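Complex II has no mitochondrially encoded subunit. Its median log2 ratio of Model over Control was 1.11 in interstitial macrophages over its few measured genes, beside 0.03 for all genes of that gate. The median was 0.51 in neutrophils and 0.50 in alveolar macrophages, beside 0.27 and -0.26 for all genes, and 0.35 in T cells, beside 0.17. Complex I assembly factors had a median of -0.47 in interstitial macrophages and of -0.61 in NK cells and in endothelial cells. In interstitial macrophages the nuclear members of complex I themselves stood at 1.18, which is a ratio of summed UMIs and not a median of log2 ratios.

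Cells that passed no gate had a nuclear share of 1.40% in PD00, 1.39% in Model and 1.40% in Control, and mitochondrial shares of 5.31%, 5.65% and 4.43%. Their median depth was 926 UMIs in PD00 and 950.5 in Model, against 1735.5 in Control. Plasma cells, antibody-secreting cells with 167 cells in PD00, 197 in Model and 6 in Control, had a nuclear share of 1.25%, 1.14% and 2.33%.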
